A study of Mus musculus with 4 samples.

Results

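Ubiquitin ligases attach ubiquitin to chosen proteins and deubiquitinases remove it, and 104 genes of these classes were followed in mouse embryonic fibroblasts after knockdown of eIF1A, out of 4878 genes in the table. The members were taken by gene symbol, with Usp18 and Dcaf13 left out by the rule. The list holds what a name pattern catches (Rnf, Trim, March, Siah, Mdm, Birc, HECT, F-box, cullin, Klhl, Kctd, Dcaf, Usp and Otu names). The pattern also takes Uch names, but no Uch gene was in the table. It comprised 82 ligases and ligase components and 22 deubiquitinases. The labels do not say how the genes of the table were selected, so shares of all genes refer to this table only. Genes absent from it, such as Cul1 and Cul3, were not assessed. A name is not an activity. Usp39 encodes a splicing factor with no known protease activity, and Usp6nl encodes a Rab GTPase-activating protein. Rnf7 encodes the RING subunit that joins cullin 5, and not a ligase that works alone.

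The cells were fibroblasts at passages 5 to 8, transfected with Lipofectamine RNAiMAX. Knockdown cells received the siRNA Si-eIF1A (X+18) and control cells a negative control siRNA, with 2 libraries in each group. The labels give no genotype, strain or age. They also leave unsaid whether each library had its own culture, and the p-values therefore rest on a library-to-library spread that may be technical. The question behind the comparison is which mRNA levels differ when eIF1A, an initiation factor needed for scanning and start codon choice, is depleted. The genes for eIF1A itself were not analysed here, so the depth of the knockdown was not checked.

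A ubiquitin ligase is the last enzyme of a relay in which an activating enzyme (E1) charges a conjugating enzyme (E2). RING ligases hold the charged E2 beside the substrate, and HECT ligases take the ubiquitin onto a cysteine of their own first. Cullin-RING ligases are assembled from a cullin scaffold, a RING subunit and an exchangeable receptor, such as an F-box, BTB or DCAF protein, that picks the substrate. Deubiquitinases of the USP, OTU and UCH families cut ubiquitin off and so edit or cancel the mark.

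Bulk MARS-seq counts the 3′ ends of polyadenylated RNA. Reads recovered over the genes of the table numbered 2152331 and 2352111 in the knockdown libraries and 2182825 and 2595625 in the control libraries, and no gene was listed at 0 in any library. Ligase and deubiquitinase genes held 1.31% and 1.43% of these reads in knockdown libraries, and 1.30% and 1.21% in control libraries. Of 16 fibroblast markers 6 were in the table, and their summed normalised counts were 14820 and 16369 in knockdown libraries, against 31191 and 27561 in control libraries. Vim and Sparc were among the 5 of these 6 that were lower in knockdown, by 1.88-fold and 1.73-fold. These were the smallest of the 5 falls, which reached 7.94-fold, and Fn1 did not pass. Of 22 markers of other cell types only the gene Nes was in the table, at 126 and 140 normalised counts in knockdown libraries and 219 and 229 in control libraries. The part of this shift in fibroblast markers in the results below was not tested. In bulk RNA, fewer cells of a type and less RNA per cell cannot be told apart.

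Most ligase and deubiquitinase mRNAs did not pass the test, and those that did went both ways. Of the 104 members, 100 had a mean of at least 5 normalised counts and were tested, and 4 (Fbxo3, Klhl11, Usp14 and Usp34) fell under that filter. Of the 100, 10 were higher and 11 lower in knockdown (limma with Benjamini-Hochberg adjustment over all 4605 genes tested, adjusted p under 0.05), and 79 did not pass. Over all tested genes the share called was 37.5%, with 15.9% higher and 21.6% lower. The median log2 fold change was 0.13 over the tested members and −0.0091 over all tested genes. The median size of the log2 fold change, without its sign, was 0.44 over the members and 0.59 over all genes. Without knockdown replicate 2 the medians were −0.012 over the members and −0.046 over all genes. Without control replicate 1 they were 0.16 and 0.0068. A log2 fold change of at least 1 in size was found in 16 of the 100 members, against 25.5% of all genes. The knockdown libraries lay both above or both below the control libraries for 60 members, against 67.8% of all genes.

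The lower share of calls among the members was seen at each level of expression. Of 36 members with a mean of 5 to 50 normalised counts, 5.56% were called, against 17.7% of all genes at that level. Between 50 and 200 the shares were 29.7% of 37 members and 39.8% of all genes, and from 200 upwards they were 29.6% of 27 members and 49.6% of all genes. No test of these shares was made. Of the 100 members, 40 had a 95% interval of the log2 fold change that lay wholly within 1 of 0, against 32.1% of all genes.

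**Figure D1:**
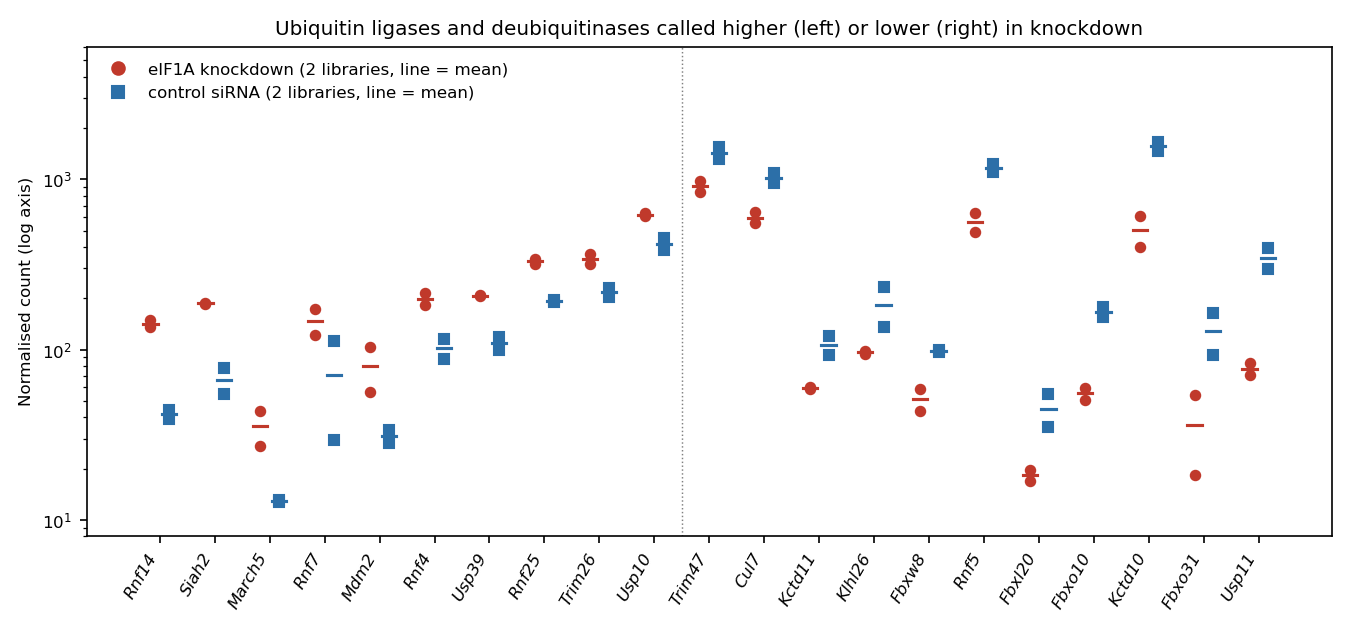
Normalised counts (log axis) of the 21 ligase and deubiquitinase genes called higher (left of the dotted line) or lower (right) in knockdown, with points for the 2 eIF1A knockdown and 2 control siRNA libraries and short lines at the group means. In every gene shown both knockdown libraries are above, or both below, the control pair; Rnf14 averages 142 in knockdown and 41.6 in control, and Usp11 averages 77.3 in knockdown and 347 in control.

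Calls that held under every one of 17 alternative settings (other pseudocounts, filters, scalings and tools, and each library left out) numbered 8, namely rises of Siah2, Rnf14 and Usp39 and falls of Usp11, Fbxo31, Kctd10, Fbxo10 and Rnf5. The other 13 lost the call in at least 1 setting. The plot of called members under the alternatives shows which. A linked property is base composition. The transcripts of the 11 members that fell had a median GC content of 55.9%, and those of the 10 that rose 49.9%. Over all genes the medians were 55.9% for those called lower and 48.9% for those called higher. With a loess trend on transcript GC content removed from each library, 12 of the 21 calls were kept, and the members then called were 14 higher and 7 lower. Over all 4605 genes 672 were then higher and 644 lower. The part of GC content in these results was not tested further. Scaling every library to the same total moved the median of all genes to 0.34 and gave 24 members higher and 5 lower, with 41.5% of all genes called (28.4% higher and 13.2% lower). The normalised totals were 1737440 and 1597710 in knockdown libraries and 2148300 and 2106580 in control libraries. Equal totals multiply every gene of a library by the same factor, so this setting raises all genes in knockdown relative to control.

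**Figure D2:**
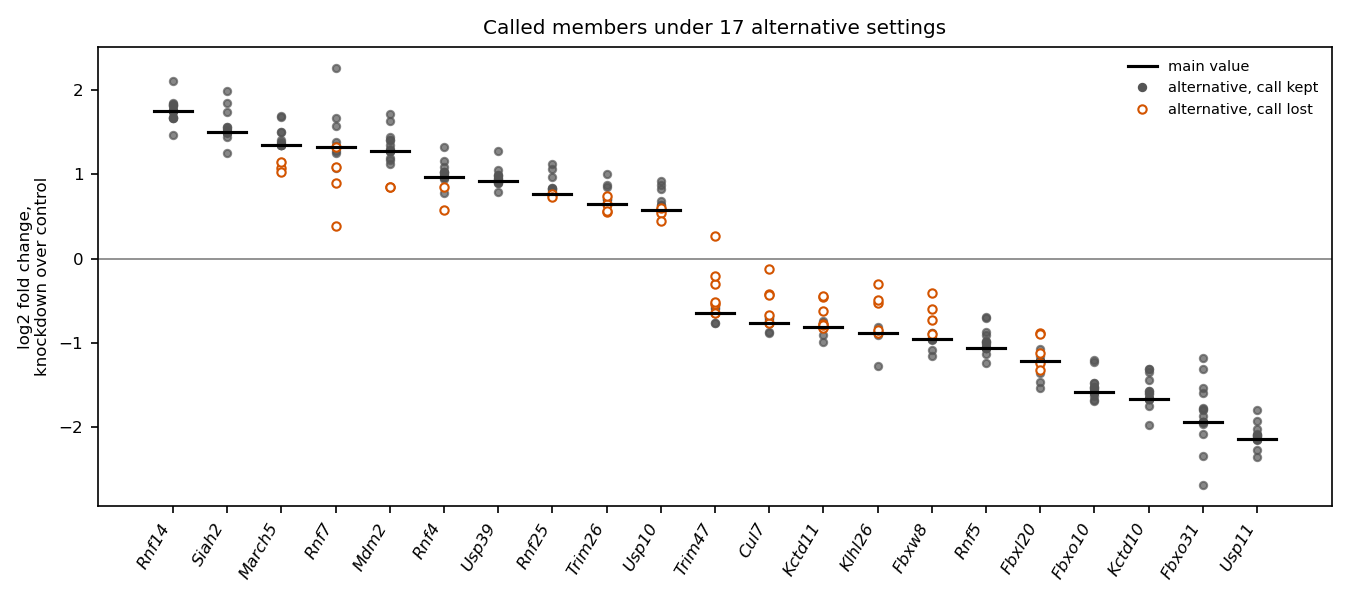
log2 fold changes (knockdown over control) of the 21 called genes under the main setting (black lines) and under 17 alternatives, filled where the call was kept and open where it was lost. Points of 20 of the 21 genes stay on one side of 0; Trim47 reaches 0.27 with the GC trend removed.

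Of the 10 rises in the list, 8 were in ligases of the RING names. In the 45 members of the Rnf, Trim, March, Siah, Mdm, Birc and HECT names, a grouping made after the values were seen, 8 rose and 2 fell while 35 missed the threshold, and the median log2 fold change was 0.27. The grouping holds Rnf7, a cullin partner. The share higher was 17.8%, against 15.9% of all genes, and the share lower was 4.44%, against 21.6%. The median was 0.47 and 0.20 without knockdown replicates 1 and 2, and 0.39 and 0.23 without control replicates 1 and 2. Over all genes these medians were 0.011, −0.046, 0.0068 and −0.043. At equal library totals there were 14 rises and 1 fall, where 28.4% of all genes were higher and 13.2% lower.

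Siah2, a RING ligase that acts in hypoxia signalling by marking the prolyl hydroxylases that sense oxygen, had 186 and 187 normalised counts in knockdown libraries, against 77.8 and 55.2 in control libraries. The knockdown libraries were nearly equal and stood above both control libraries. The rise was 2.82-fold (log2 interval 0.93 to 2.07, limma adjusted p = 0.000282).

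Rnf14 and Rnf25 encode RING ligases that in human cells act together on translation factors trapped on stalled ribosomes. Rnf14 had 136 and 149 normalised counts in knockdown libraries and 44.3 and 39.0 in control libraries, a log2 fold change of 1.75 ± 0.29 (SE; 3.36-fold, limma adjusted p = 0.000106). This was the largest rise among the called members. Rnf25 had 320 and 341 in knockdown libraries and 190 and 196 in control libraries, with a narrow spread in each group and a log2 fold change of 0.77 ± 0.22 (SE; 1.71-fold, limma adjusted p = 0.0108). The Rnf25 call was lost without knockdown replicate 2 (adjusted p = 0.0909) and in limma without its mean-variance trend (0.0539).

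Mdm2, the ligase that keeps p53 low, had 56.5 and 103 normalised counts in knockdown libraries, against 33.5 and 28.4 in control libraries. Knockdown replicate 2 was the high library, and the groups did not overlap. The rise was 2.43-fold (limma adjusted p = 0.00804). The call was lost without knockdown replicate 2 (1.81-fold, adjusted p = 0.222) and after removal of the GC trend (1.81-fold, 0.0756).

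March5, a ligase of the outer mitochondrial membrane, had 43.6 and 27.2 normalised counts in knockdown libraries and 12.8 and 13.0 in control libraries, a 2.55-fold rise (limma adjusted p = 0.0235). It lost the call without knockdown replicate 1 (2.03-fold, adjusted p = 0.284), under quantile normalisation (0.0710) and with the GC trend removed (0.0635). Rnf4, which recognises proteins tagged with SUMO chains, rose 1.96-fold, with 183 and 215 in knockdown libraries and 88.6 and 115 in control libraries (limma adjusted p = 0.00593). Its call was lost without knockdown replicate 2 (adjusted p = 0.0740) and after removal of the GC trend (0.103). Trim26, a RING protein of the tripartite motif family, rose 1.57-fold, with 318 and 363 in knockdown libraries and 230 and 204 in control libraries (limma adjusted p = 0.0306). That call was lost in limma without trend (0.0922), without either knockdown replicate (0.0730 and 0.221) and without control replicate 2 (0.0871).

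Rnf7 rested on 1 control library. It had 174 and 122 normalised counts in knockdown libraries, against 29.5 and 112 in control libraries, so that control replicate 2 lay close to knockdown replicate 2. The rise of 2.50-fold (limma adjusted p = 0.0178) was 4.81-fold without control replicate 2 and 1.30-fold, with no call, without control replicate 1 (adjusted p = 0.362). DESeq2 did not call it (adjusted p = 0.391). A stretch of at least 75 bases in the last 500 of its longest transcript also occurs at 95% identity or more in transcripts of Emb, so its count is uncertain to that extent.

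Rnf5, a ligase anchored in the endoplasmic reticulum membrane that helps degrade misfolded proteins, was the fall in this group that held throughout. It had 636 and 492 normalised counts in knockdown libraries, against 1107 and 1229 in control libraries, and the groups stood well apart. The log2 fold change was −1.06 ± 0.22 (SE; 2.08-fold lower, limma adjusted p = 0.000777). An exon of a predicted gene lies on the opposite strand within its last 1000 bases. Its close relative Rnf185 had 228 and 217 in knockdown libraries and 208 and 185 in control libraries and did not pass, with a log2 fold change of 0.18 (95% interval −0.30 to 0.67, picked with its value known). Whether the 2 genes differ in response was not tested. Trim47 fell 1.57-fold, with 984 and 842 in knockdown libraries and 1556 and 1310 in control libraries (limma adjusted p = 0.0220). Its log2 fold change turned to 0.27 with the GC trend removed (adjusted p = 0.291), and it also lost the call at equal library totals, under quantile normalisation, in limma without trend, without knockdown replicate 2 and without control replicate 1 (adjusted p = 0.0984 to 0.442). Its transcript had 64.1% GC, at the top of the called members.

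None of the 5 HECT ligases in the table passed in the main limma fit (1 lower at an unadjusted p under 0.05, and 0 calls in edgeR and DESeq2). Nedd4, which marks membrane proteins for uptake, had 535 and 628 normalised counts in knockdown libraries and 681 and 577 in control libraries, and the groups overlapped. Its log2 fold change was −0.11 (95% interval −0.56 to 0.34). Huwe1, a very large ligase with many substrates, had 113 and 196 in knockdown libraries and 139 and 86.8 in control libraries, with an interval of −0.20 to 1.07. Hectd3 had the smallest p of the family, with 7.27 and 4.08 in knockdown libraries and 19.7 and 13.0 in control libraries (log2 fold change −1.39, interval −2.67 to −0.12, limma adjusted p = 0.0798).

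**Figure D3:**
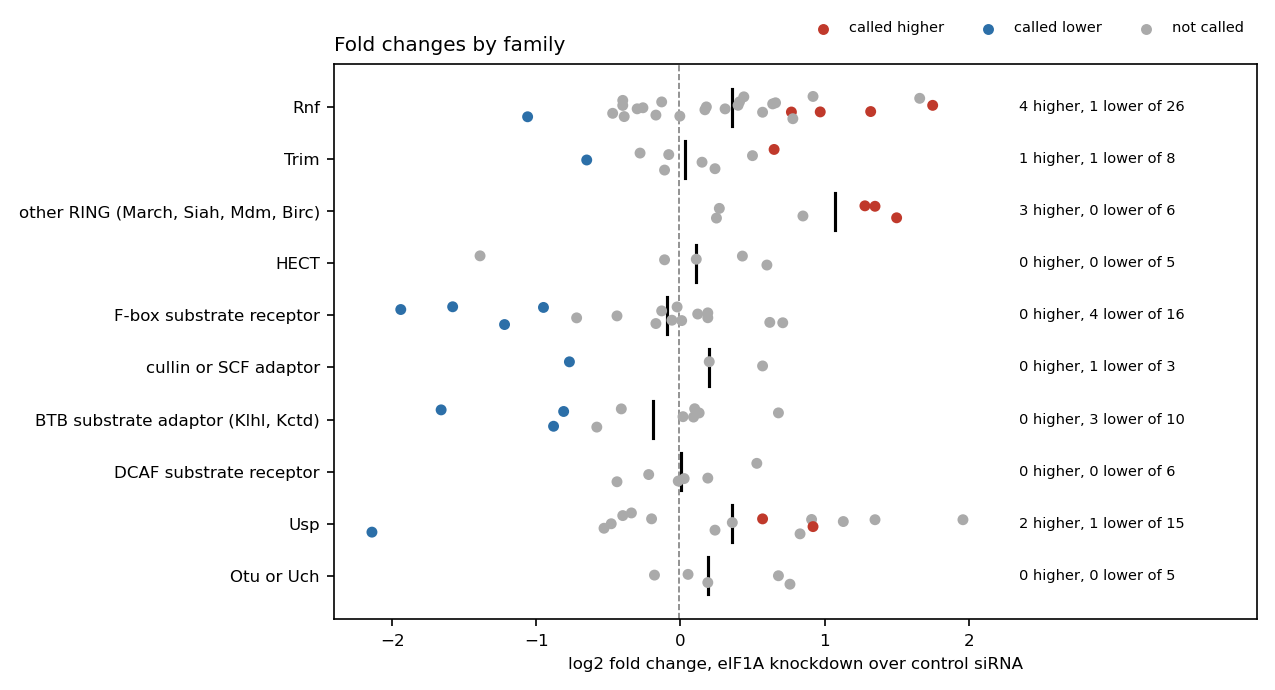
log2 fold change (eIF1A knockdown over control siRNA) of the 100 tested ligase and deubiquitinase genes by family, with a point for each gene coloured by its call, a black bar at each family's median and a dashed line at the median of all genes tested. F-box and Klhl or Kctd genes have calls on the lower side (4 of 16 and 3 of 10, against 21.6% of all genes). The March, Siah, Mdm and Birc genes have calls on the higher side (3 of 6, against 15.9% of all genes). With the GC trend removed 1 of these was called higher.

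Among the substrate receptors, scaffolds and adaptors of cullin-RING ligases the calls of the main limma fit were falls, at a share near that of all genes. The F-box, cullin, Skp, Klhl, Kctd and Dcaf names, also put together after the values were seen, held 37 genes, of which 35 were tested. Of these 8 fell and 0 rose in the main limma fit while 27 missed the threshold, and the median log2 fold change was −0.023. The share lower was 22.9%, against 21.6% of all genes, and the share called in either direction was 22.9%, against 37.5%. The median was −0.13 and −0.16 without knockdown replicates 1 and 2, −0.13 and −0.088 without control replicates 1 and 2, and 0.32 at equal library totals. At an unadjusted p under 0.05 there were 2 higher and 11 lower, edgeR called 1 higher and 8 lower (37.3% of all genes called), and DESeq2 0 and 5 (31.4% of all genes called). With the GC trend removed 2 were higher and 4 lower, and with equal library totals 2 and 3. Over all 4605 genes 672 were higher and 644 lower with the GC trend removed. At equal library totals 28.4% of all genes were higher and 13.2% lower. Over all genes the median was 0.011 and −0.046 without knockdown replicates 1 and 2, and 0.0068 and −0.043 without control replicates 1 and 2. The RING subunit Rnf7, a cullin partner that was called higher, was counted with the Rnf names and not here. The absence of rises in the main fit rests on that grouping, and it did not hold with the GC trend removed or at equal library totals.

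Kctd10, a BTB adaptor of cullin 3, had 399 and 611 normalised counts in knockdown libraries, against 1659 and 1471 in control libraries. Even the higher knockdown library was under the lower control library by a wide margin. Its log2 fold change was −1.66 ± 0.23 (SE; 3.16-fold lower, limma adjusted p = 1.72e-05). An exon of Myo1h lies on the opposite strand in its last 1000 bases, and the sources used here do not give whether counting used strand. Kctd11, another cullin 3 adaptor, fell 1.75-fold, with 60.5 and 59.1 in knockdown libraries and 120 and 92.5 in control libraries (limma adjusted p = 0.0346), but 8 of the 17 alternatives lost the call, the replicate block (adjusted p = 0.0582) and DESeq2 (0.0786) among them. Klhl26, a Kelch-repeat member of the BTB family, had 94.4 and 98.5 in knockdown libraries, against 233 and 136 in control libraries (1.84-fold lower, limma adjusted p = 0.0195). Its call was lost in 5 alternatives, and without control replicate 1 the fall was 1.40-fold (adjusted p = 0.251). The related Kctd5 had 182 and 192 in knockdown libraries and 167 and 205 in control libraries, and the log2 interval ran from −0.48 to 0.52 (Kctd5 was picked after its value was seen).

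Fbxo31, an F-box protein known in human cells for degrading cyclin D1, had 54.1 and 18.3 normalised counts in knockdown libraries, against 164 and 93.3 in control libraries. The spread within each group was wide, and the groups did not overlap. The fall was 3.83-fold (log2 fold change −1.94, standard error 0.41, limma adjusted p = 0.00105). It was 6.46-fold without knockdown replicate 1, 2.27-fold without knockdown replicate 2 and 2.47-fold with the GC trend removed, and it remained called in each. Fbxo10, known in human cells for degrading BCL2, had 59.7 and 50.9 in knockdown libraries, against 179 and 156 in control libraries, a tighter fall of 2.99-fold (limma adjusted p = 0.000174). Fbxl20, an F-box protein with leucine-rich repeats, fell 2.33-fold, with 17 and 19.7 in knockdown libraries and 55.1 and 34.9 in control libraries (limma adjusted p = 0.0239). It lost the call at equal totals, in DESeq2 (0.0513), without either knockdown replicate (0.105 and 0.0536) and without control replicate 1 (0.182).

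Cul7 and Fbxw8 encode a scaffold and an F-box protein that bind each other in a cullin-RING ligase, and both fell. Cul7 had 642 and 552 normalised counts in knockdown libraries and 1091 and 951 in control libraries (1.71-fold lower, limma adjusted p = 0.00716). Fbxw8 had 58.9 and 43.5 in knockdown libraries and 99.4 and 97.4 in control libraries (1.93-fold lower, limma adjusted p = 0.0184), with an exon of a predicted gene on the opposite strand of its 3′ end. Both calls were lost with the GC trend removed (adjusted p = 0.631 and 0.292), at equal library totals (0.110 and 0.139) and without knockdown replicate 2 (0.0791 and 0.182). Cul7 lost it also under quantile normalisation (0.106) and in limma without trend (0.0612), and Fbxw8 in DESeq2 (0.0507).

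Other parts of these ligases named here did not pass the test. Skp1a, the adaptor that holds F-box proteins to cullin 1, had 15.3 and 18.3 normalised counts in knockdown libraries and 9.84 and 12.2 in control libraries, and its log2 fold change of 0.57 had an interval from −0.51 to 1.66. Cul4b, a scaffold for DCAF receptors, had 4.04 and 8.15 in knockdown libraries and 5.91 and 4.06 in control libraries. Skp2, the receptor for the kinase inhibitor p27, had 70.2 and 74.0 in knockdown libraries and 45.3 and 42.2 in control libraries, with groups that did not overlap, and missed the threshold (log2 fold change 0.71, interval 0.056 to 1.36, limma adjusted p = 0.0814). Fbxw11, a receptor for phosphorylated β-catenin and IκB, had 337 and 355 in knockdown libraries and 305 and 299 in control libraries (log2 fold change 0.19, interval −0.26 to 0.65). None of the 6 Dcaf genes passed in limma (1 lower at an unadjusted p under 0.05, and 0 in edgeR and DESeq2). Dcaf15 had the smallest p of them, at 897 and 838 in knockdown libraries and 1237 and 1114 in control libraries (log2 fold change −0.44, limma adjusted p = 0.107), and turned to 0.17 with the GC trend removed.

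Deubiquitinases held the deepest fall of the called members, that of Usp11, beside rises of Usp39 and Usp10. Of 22 genes 20 were tested, 2 rose and 1 fell while 17 missed the threshold, and the median log2 fold change was 0.30. That median, and the class contrast below, include Usp39 (0.92) and Usp6nl (1.35), which are deubiquitinases by name only. These are shares of 10% higher and 5% lower, against 15.9% and 21.6% of all genes. Usp11, a USP protease with a role in DNA repair, had 84.0 and 70.6 normalised counts in knockdown libraries, against 398 and 297 in control libraries. Its log2 fold change was −2.14 ± 0.25 (SE; 4.42-fold lower, limma adjusted p = 2.74e-06). Its close relative Usp4 averaged 397 ± 6.55 in knockdown libraries and 336 ± 12.3 in control libraries (SD, n = 2 each) and did not pass (log2 fold change 0.24, interval −0.21 to 0.69, named after its value was seen).

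Usp39, the splicing factor, had 206 and 209 normalised counts in knockdown libraries, against 99.4 and 119 in control libraries, a rise of 1.90-fold (log2 fold change 0.92, standard error 0.25, limma adjusted p = 0.00634). Usp10, which in human cells removes ubiquitin from proteins of the small ribosomal subunit, had 633 and 608 in knockdown libraries, against 453 and 386 in control libraries. Its rise of 1.48-fold (limma adjusted p = 0.0423) was lost under the replicate block (0.0638), in limma without trend (0.121), without either knockdown replicate (0.182 and 0.141) and without control replicate 2 (0.157). Leaving out Usp39, which is no protease, 1 deubiquitinase was higher and 1 lower.

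Several low-count Usp genes lay on the higher side without passing. Usp36, a nucleolar deubiquitinase, had 9.69 and 14.3 normalised counts in knockdown libraries and 4.92 and 0.812 in control libraries (limma adjusted p = 0.0570). Its reads summed to 33 in knockdown and 6 in control, a ratio of 4.56 scaled to the libraries, with an exact 95% counting interval of 1.89 to 13.3. Usp42 had 23.4 and 25.8 in knockdown libraries, against 11.8 and 9.74 in control libraries (limma adjusted p = 0.0738). Usp40 had 51.7 and 42.8 in knockdown libraries, against 24.6 and 24.3 in control libraries (limma adjusted p = 0.0589). Exon sequence of Dgkd lies on the opposite strand in the last 1000 bases of Usp40. Usp6nl had 26.6 and 28.5 in knockdown libraries, against 17.7 and 5.68 in control libraries (limma adjusted p = 0.0520). These 4 were named after their values were seen. TMM scaling, edgeR and the fit with no filter on low values each called 4 deubiquitinases higher, and equal library totals 8. Over all genes TMM scaling called 799 of 4603 higher, and the fit with no filter 733 of 4878. The all-gene shares higher were 17.5% in edgeR and 28.4% at equal library totals.

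None of the 5 Otu genes passed in the main limma fit, with 0 at an unadjusted p under 0.05 and 0 calls in edgeR and DESeq2. Otub1, an inhibitor of E2 enzymes as well as a protease, had 534 and 547 normalised counts in knockdown libraries and 680 and 552 in control libraries (log2 fold change −0.18, interval −0.63 to 0.27). Otud5 had 22.6 and 31.9 in knockdown libraries and 30.5 and 21.9 in control libraries, with an interval from −0.82 to 0.92. Otud7b had the smallest p of the 5, at 35.5 and 61.1 in knockdown libraries and 37.4 and 21.9 in control libraries (limma adjusted p = 0.191). Otulin and Rnf31, the protease and the ligase of linear ubiquitin chains, were both near control, with log2 fold changes of 0.19 (interval −0.35 to 0.73) and −0.13 (interval −0.64 to 0.39), and both were picked with their values known. Rnf31 overlaps Irf9 on the same strand at its 3′ end, so its count is uncertain. Usp22, which removes ubiquitin from histones, had 68.6 and 96.5 in knockdown libraries and 157 and 82.0 in control libraries, with an interval from −1.14 to 0.19. Usp14, a deubiquitinase of the proteasome, had 3.23 and 2.04 in knockdown libraries and 3.94 and 1.62 in control libraries, too few to compare.

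Ligases and deubiquitinases did not separate clearly when set side by side. Of 80 tested ligases and ligase components 8 were higher and 10 lower, and of 20 tested deubiquitinases 2 were higher and 1 lower. Over all genes 15.9% were higher and 21.6% lower. The median log2 fold change was 0.10 for ligases and 0.30 for deubiquitinases, a gap of 0.20. That gap was 0.04 when only genes with a mean of at least 20 normalised counts were kept. Without knockdown replicate 1 the medians were 0.15 for ligases and 0.42 for deubiquitinases. Without knockdown replicate 2 they were −0.039 and 0.22, with −0.046 for all genes. Without control replicate 1 they were 0.15 and 0.28, and without control replicate 2 0.022 and 0.22. Under quantile normalisation they were 0.083 and 0.37. Without knockdown replicate 2 the calls higher and lower were 4 and 5 for ligases, 1 and 1 for deubiquitinases and 442 and 716 for all 4569 genes then tested, and the median of ligases was −0.039. Relative to each gene's own mean over the 4 libraries, the median deubiquitinase stood at −0.072 and 0.26 in knockdown libraries and at 0.055 and −0.29 in control libraries on the log2 scale. The median ligase stood at −0.035 and 0.13 in knockdown libraries and at 0.033 and −0.088 in control libraries. For both classes knockdown replicate 1 lay below control replicate 1, and the groups overlapped. The gap in medians is a description of these libraries and carries no test.

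**Figure D4:**
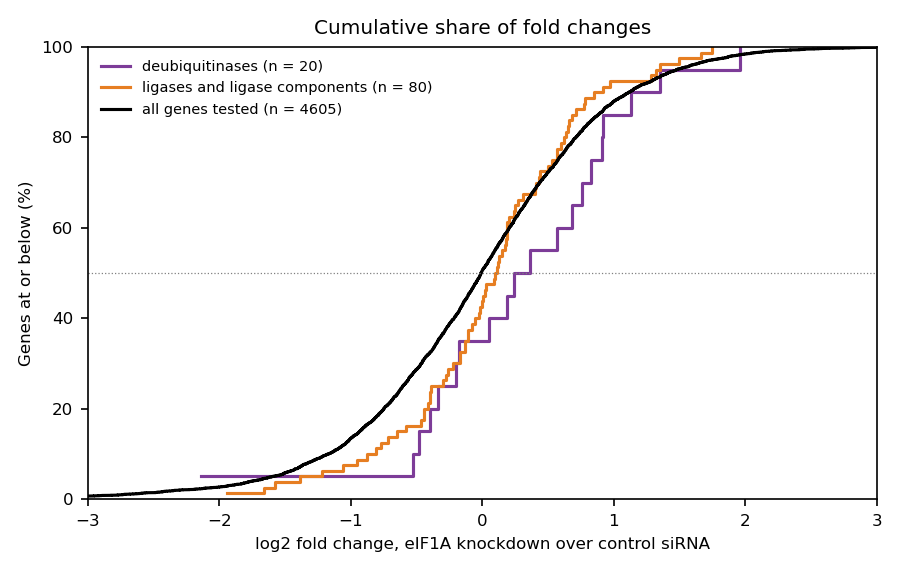
Cumulative share (%) of genes at or below each log2 fold change (eIF1A knockdown over control siRNA) for 20 deubiquitinases, 80 ligases and ligase components, and all 4605 genes tested; the view is limited to 3 on either side of 0. The deubiquitinase curve crosses 50% at a higher fold change (median 0.30) than the ligase curve (0.10) and the curve of all genes (−0.0091).

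Further named ligases did not pass in the main fit, and their intervals, of unlike width, covered 0. Trim28, a co-repressor of transposable elements with a RING domain, had 3910 and 3558 normalised counts in knockdown libraries and 4349 and 3702 in control libraries, and the groups overlapped. Its log2 fold change was −0.11 (interval −0.57 to 0.36), and it was 0.57 and called with the GC trend removed (adjusted p = 0.0452). Trim32 had 144 and 161 in knockdown libraries and 211 and 162 in control libraries (interval −0.80 to 0.24). Rnf40, a ligase of histone H2B, had 130 and 139 in knockdown libraries and 179 and 176 in control libraries (interval −0.91 to 0.11). Exon sequence of another gene lies on the opposite strand in the last 1000 bases of Rnf40. In Trim32 and Rnf40 the groups did not overlap. Rnf187 had 1510 and 1893 in knockdown libraries and 1817 and 1582 in control libraries, with an interval from −0.46 to 0.45 (named after its value was seen). Birc6, a giant inhibitor of apoptosis that joins an E2 domain to ligase activity, had 7.27 and 21.1 in knockdown libraries and 9.84 and 10.6 in control libraries, with an interval from −0.98 to 1.52, too wide at this depth to show a small difference.

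**Figure D5:**
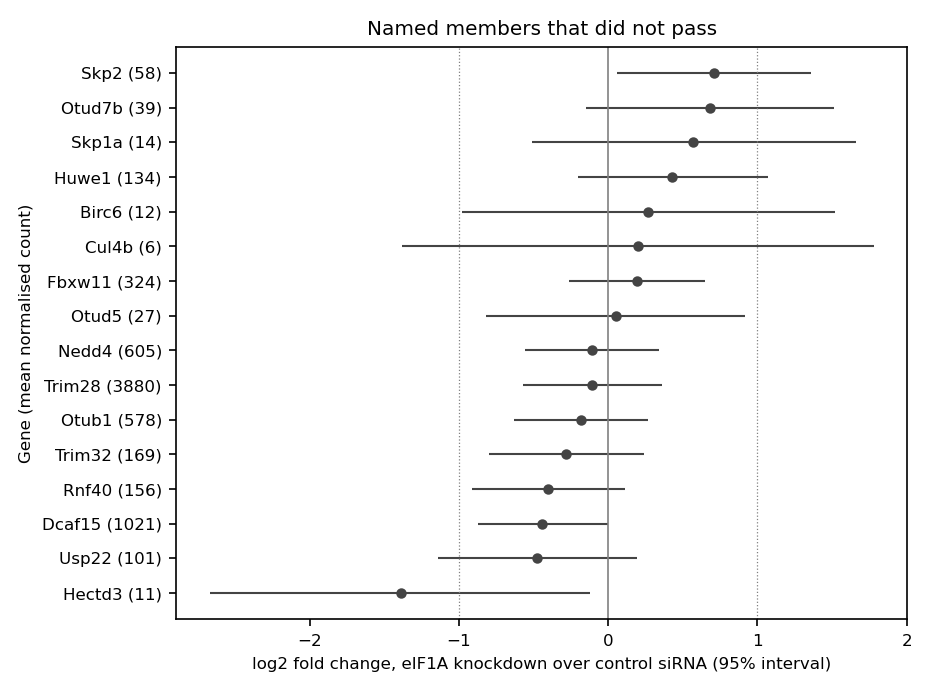
log2 fold change (eIF1A knockdown over control siRNA) with its 95% interval for 16 named ligase and deubiquitinase genes that did not pass, with the mean normalised count of each in brackets. Genes of high count such as Trim28, Nedd4 and Otub1 have intervals inside the dotted lines at 1 on either side of 0; Cul4b and Hectd3, at few counts, have intervals that reach past them.

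The promoters of the 2 largest rises and 2 largest falls with an entry in the RefSeq promoter table (build GRCm38.p6, which shares its coordinates with mm10) are shown as the start-site sequence of members that moved in opposite directions. Of the 21 called members 16 had an entry, 7 that rose and 9 that fell. Each line gives the 250 bases before the start, 5′ to 3′, and capitals mark matches, on either strand, to any of these motifs: TGATGNAA (an ATF4 and C/EBP core), TGACGTCA (a CREB-type element), the E-box CACGTG, the element of NF-Y spelled CCAAT, the ETS-type element CCGGAAG and the GC box GGGCGG, some of which overlap. March5 lies on chromosome 19 (37207290 to 37207539, plus strand), Rnf7 on chromosome 9 (96478676 to 96478925, minus strand), Usp11 on chromosome X (20703659 to 20703908, plus strand) and Fbxo31 on chromosome 8 (121578807 to 121579056, minus strand).
March5: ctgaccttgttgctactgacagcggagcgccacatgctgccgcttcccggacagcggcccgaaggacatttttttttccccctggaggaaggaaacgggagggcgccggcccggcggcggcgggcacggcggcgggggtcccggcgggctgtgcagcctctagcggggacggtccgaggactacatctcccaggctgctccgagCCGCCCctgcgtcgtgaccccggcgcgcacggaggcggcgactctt
Rnf7: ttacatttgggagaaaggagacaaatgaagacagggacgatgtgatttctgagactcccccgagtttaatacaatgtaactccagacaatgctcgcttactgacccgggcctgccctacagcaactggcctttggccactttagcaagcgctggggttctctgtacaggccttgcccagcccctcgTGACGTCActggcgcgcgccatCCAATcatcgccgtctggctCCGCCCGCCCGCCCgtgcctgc
Usp11: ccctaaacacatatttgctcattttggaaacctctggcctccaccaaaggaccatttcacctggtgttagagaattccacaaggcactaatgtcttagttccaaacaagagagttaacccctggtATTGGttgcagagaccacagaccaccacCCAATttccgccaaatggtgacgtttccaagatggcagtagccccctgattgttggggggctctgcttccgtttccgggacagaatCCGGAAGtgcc
Fbxo31: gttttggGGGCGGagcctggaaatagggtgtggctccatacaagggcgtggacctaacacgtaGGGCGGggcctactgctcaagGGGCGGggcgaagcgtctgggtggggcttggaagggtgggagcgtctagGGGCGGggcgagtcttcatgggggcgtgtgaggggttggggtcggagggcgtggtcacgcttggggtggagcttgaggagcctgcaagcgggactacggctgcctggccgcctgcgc

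TGATGNAA, the core of the element bound by ATF4 with C/EBP proteins, was found in the 300-base windows of 0 of the 7 promoters of members that rose and 0 of the 9 of members that fell, against 3.97% of all promoters and 2.68% of those of tested genes. TGACGTCA, the CREB-type element, was found in 2 that rose (Rnf7 and Trim26) and 0 that fell, against 1.79% of all and 3.59% of tested genes. CCAAT was found in 5 that rose and 3 that fell, against 37.4% of all and 44.1% of tested genes. CCGGAAG, an ETS-type element, was found in 2 that rose and 3 that fell, against 8.86% of all and 24.2% of tested genes. CACGTG was found in 0 and 1 (7.15% of all, 13.6% of tested genes), and GGGCGG in 6 and 8 (35.7% of all, and 75.3% of the tested genes with an entry). These are letter matches, and no binding was measured.

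Other genes of the ubiquitin pathway were called in both directions, and most of the calls lower were lost at equal library totals. Of 20 tested genes for ubiquitin, E1 and E2 enzymes 6 were higher and 3 lower. The calls lower numbered 1 in edgeR, 1 in DESeq2, 1 without knockdown replicate 1, and 0 at equal library totals, without knockdown replicate 2 and without control replicate 1, while 5 to 9 were higher in these settings. Among them the E2 genes Ube2d2a (2.87-fold), Ube2d3 (2.85-fold) and Ube2e1 (2.89-fold) rose. Ube2d2a had 481 and 539 normalised counts in knockdown libraries, against 160 and 195 in control libraries (limma adjusted p = 3.65e-05). These E2s work with many RING ligases. Rps27a, which encodes ubiquitin fused to a ribosomal protein, rose 2.46-fold (limma adjusted p = 0.00158, named after its value was seen).

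Of 18 tested cullin partners, NEDD8 and COP9 signalosome genes 3 were higher and 2 lower. The calls lower, Cops6 among them, numbered 0 at equal library totals, without knockdown replicate 2 and without control replicate 1, and the calls higher numbered 1 without knockdown replicate 1. Nedd8, the ubiquitin-like protein that activates cullins, had 771 and 615 normalised counts in knockdown libraries, against 282 and 331 in control libraries (2.25-fold, limma adjusted p = 0.00038). The COP9 subunit Cops3 rose 2.00-fold (limma adjusted p = 0.00592), and Cops6 fell 1.63-fold (0.0122). Of 7 tested subunits and activators of the anaphase-promoting complex 1 was higher and 2 lower. Anapc2, its cullin-like scaffold, had 541 and 541 in knockdown libraries, against 1769 and 1476 in control libraries (2.98-fold lower, limma adjusted p = 1.18e-05). Anapc16 rose 2.62-fold (limma adjusted p = 6.30e-05), and the activator Cdc20 fell 1.75-fold (0.00473).

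Of 33 tested ligases outside the name pattern 4 were higher and 6 lower. At equal library totals the counts were 10 and 0, and without knockdown replicate 2 they were 2 and 2. Cnot4, a RING ligase tied to the CCR4-NOT deadenylase, rose 3.8-fold, with 45.2 and 49.6 normalised counts in knockdown libraries and 16.7 and 8.12 in control libraries (limma adjusted p = 0.00218). Arel1 rose 2.61-fold and Uhrf1, which reads hemimethylated DNA, fell 1.81-fold (limma adjusted p = 0.00329 and 0.0046). Of 6 tested deubiquitinases outside the pattern 2 rose, Stambpl1 (2.96-fold) and Cops5 (1.70-fold), and 1 fell, Stambp (1.98-fold; limma adjusted p = 0.0231, 0.0291 and 0.0130). Stambp and Stambpl1 are paralogues, both proteases of endosomal sorting. Without knockdown replicate 1 none of these 3 deubiquitinases was called. Stambp had 46.8 and 54.3 normalised counts in knockdown libraries and 109 and 93.3 in control libraries, whereas Stambpl1 had 28.3 and 28.5 in knockdown libraries and 13.8 and 5.68 in control libraries. The lists were chosen with earlier results of these data known, and no list was tested against the rest of the genes. Over all genes 15.9% were higher and 21.6% lower, and at equal library totals 28.4% and 13.2%.

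Of the remaining ligases, Rnf138 had 8.88 and 7.47 normalised counts in knockdown libraries and 0.984 and 3.25 in control libraries, a ratio of summed reads of 3.65 (exact 95% counting interval 1.35 to 12.3), and did not pass (limma adjusted p = 0.127). Genes just short of the threshold included Klhl22 (169 and 194 in knockdown libraries, 274 and 269 in control libraries, limma adjusted p = 0.0537), Fbxo21 (0.0608), Rnf6 (0.0651) and Fbxo34 (0.0699). Usp10, at 0.0423, was the called member closest to it. Klhl22 and Fbxo21 lay lower in knockdown, and Rnf6 and Fbxo34 higher. All of these were picked by their p-values.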

How the data were processed

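Bulk MARS-seq libraries, 2 of eIF1A knockdown and 2 of control siRNA fibroblasts, were compared. STAR, HTSeq and DESeq2, with cutadapt 1.8.3 and bcl2fastq 2.17.1.14, are listed with build mm10, per the submitters' processing notes. The deposited values are a signal on the scale of counts divided by a library factor, called normalised counts here. In each library 100% of values were whole multiples of 1 read's value within 0.01, so reads could be recovered.

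Values were tested as log2(value + 1) with limma 3.58.1 (R 4.3.3, mean-variance trend, no block) over the 4605 genes with a mean of at least 5, with Benjamini-Hochberg adjustment and a threshold of 0.05. Fold changes on that scale understate the change of low genes. The count alternatives were edgeR 4.0.16, which called 807 genes higher and 909 lower, and DESeq2 1.42.0, which called 620 and 828. Replicates of a group differed by more than sampling noise.

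Members and lists were chosen with earlier results of these data known. Members named with values were the called ones (up to 14 each way, mean of at least 20, groups apart), the smallest p in each family and a list from general knowledge. Members given outside that rule are marked as picked with their values known. Pathway lists gave up to 3 called genes each. Gene models were GENCODE M21, which matched 4873 of 4878 symbols. Counting intervals cover counting error only. An exact permutation test of 2 against 2 libraries cannot go below a two-sided p of 0.333. A single gene of the pathway lists is not reported here.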

Additional observations from a re-analysis of the deposited data

How the results depend on the processing

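Over the 38 members that the naming rule chose, 538 of 624 alternative values kept their direction and side of the threshold, 54 lost the call, 9 gained it and 23 changed sign. Equal library totals, which moved the median of all genes to 0.34, gave 24 members higher and 5 lower, 16 ligases higher and 4 lower, 8 deubiquitinases higher, 2 cullin-RING components higher and 3 lower, and 14 of the RING and HECT names (Rnf7 included) higher and 1 lower, with medians of 0.47 (members), 0.44 (ligases) and 0.65 (deubiquitinases). With the GC trend removed, an alternative chosen after seeing the data, 7 members, 6 ligases and 4 cullin-RING components were lower, and 2 cullin-RING components higher. Over all 4605 genes 672 were then higher and 644 lower. Deubiquitinases called higher numbered 4 with no filter, 4 with TMM scaling, 4 in edgeR and 1 without symbols of uncertain role. Over all genes 733 of 4878 were higher with no filter, 799 of 4603 with TMM scaling and 17.5% in edgeR. Cullin-RING components called higher numbered 1 with TMM scaling and 1 in edgeR, and those lower 5 in limma without trend and 5 in DESeq2. With a mean of at least 20 the deubiquitinase median was 0.053 and its gap to ligases 0.04. Scaling to equal totals multiplies all genes of a library by the same factor. The cause of the other moves was not tested.

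The correlation of deviations between the libraries numbered 1 was −0.129 over 4605 genes. With 2 libraries per group it cannot show whether library numbers pair the samples. With the replicate block 19 members were called, all among the 21, and 1 deubiquitinase was higher. The crossed pairing, chosen after seeing the data, called 29 members, and 16 members, 5 deubiquitinases and 2 cullin-RING components were higher. Over all genes it called 891 higher and 1154 lower, and the replicate block 641 and 918.

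Leaving out each library in turn, members called ranged from 5 to 12 higher and 6 to 12 lower, ligases from 4 to 9 higher and 5 to 10 lower, and deubiquitinases from 1 to 4 higher and 1 to 2 lower. Cullin-RING components ranged from 4 to 8 lower and the RING and HECT names from 4 to 9 higher and 1 to 2 lower. Medians ranged from −0.012 to 0.22 for members and from −0.039 to 0.15 for ligases. For deubiquitinases they ranged from 0.22 to 0.42, and for cullin-RING components from −0.16 to −0.088. Over all genes they ranged from −0.046 to 0.011.

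Sign changes were in genes not called, except Trim47 (0.27 with the GC trend removed). With that trend removed Birc6 was −0.15, Cul4b −0.32, Dcaf15 0.17, Fbxw11 −0.14, Otub1 0.21, Rnf40 0.00052 and Trim28 0.57. At equal totals Nedd4 was 0.24, Otub1 0.17, Trim28 0.25 and Trim32 0.074, and under quantile normalisation Nedd4 was 0.24, Otub1 0.16, Otud5 −0.21 and Trim28 0.37. Leaving out a library, Birc6 ranged from −0.44 to 0.98, Cul4b from −0.025 to 0.63, Nedd4 from −0.23 to 0.0063, Otud5 from −0.19 to 0.29 and Trim28 from −0.22 to 0.011. The cause was not tested. Depth limits the members with few reads, 6 of which had a library with 3 reads or fewer.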
